A study of Mus musculus with 10 samples.

Results

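The Cyp2a genes of mouse chromosome 7 encode cytochrome P450 enzymes that hydroxylate steroids, coumarin and other small molecules in liver. Described here are Cyp2a4, Cyp2a5, Cyp2a12 and Cyp2a22, taken by symbol from the gene count table, where they are 4 of 56748 rows. They were chosen with their difference between the groups known. Their flox and HKO values are therefore given as a description, without a test. All 4 were among the 14068 genes that passed the filter on low counts, Cyp2a4 only through its counts in flox livers.

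Whole liver RNA was sequenced from 10 mouse samples, 5 labelled ACSS2-flox (flox below) and 5 labelled ACSS2-HKO (HKO below), a liver cell specific knockout of the acetyl-CoA synthetase gene Acss2. Both groups had eaten a high-fat, high-fructose diet for 4 months, so no group on another diet enters the comparison. The question was the part played by ACSS2 in metabolic dysfunction associated steatohepatitis. Not stated in the labels are strain, sex, age and the promoter driving the recombinase. Sex-linked transcripts, given below, were those of males in all 10 samples. Nor do the labels say that each library is a separate animal, so p-values measure the spread between these samples, which may be technical.

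Cytochromes P450 are haem enzymes of the endoplasmic reticulum that insert oxygen into their substrates with electrons from P450 reductase. Cyp2a4 and Cyp2a5 are a classic pair of near-copies with different substrates. Cyp2a4 hydroxylates testosterone and related steroids and is more abundant in female than in male mouse liver, a difference set by the pattern of growth hormone secretion. Cyp2a5, the mouse counterpart of human CYP2A6, hydroxylates coumarin and also acts on nicotine and bilirubin. It is inducible, and its known regulators include the nuclear receptors HNF4A and CAR, the aryl hydrocarbon receptor, NRF2 and clock output factors. Cyp2a12 hydroxylates testosterone and the bile acid deoxycholate.

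The sequence upstream of each gene is shown because the genes form 2 pairs that look alike there, and the genes within a pair differed in their levels. Each line gives the 250 bases before the RefSeq start in GRCm38.p6, written 5′ to 3′ on the gene's strand: Cyp2a4 at chr7:26306942-26307191 and Cyp2a5 at chr7:26835089-26835338 on the plus strand, Cyp2a12 at chr7:27028840-27029089 on the plus strand, and Cyp2a22 at chr7:26939387-26939636 on the minus strand. Capitals mark exact matches to TATAAA, TTGCATAA and CAAAGTCC.
Cyp2a4: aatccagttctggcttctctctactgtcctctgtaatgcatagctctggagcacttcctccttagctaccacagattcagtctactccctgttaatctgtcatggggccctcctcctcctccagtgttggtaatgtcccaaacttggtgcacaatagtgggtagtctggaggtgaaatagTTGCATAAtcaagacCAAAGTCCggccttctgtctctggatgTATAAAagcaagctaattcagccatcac
Cyp2a5: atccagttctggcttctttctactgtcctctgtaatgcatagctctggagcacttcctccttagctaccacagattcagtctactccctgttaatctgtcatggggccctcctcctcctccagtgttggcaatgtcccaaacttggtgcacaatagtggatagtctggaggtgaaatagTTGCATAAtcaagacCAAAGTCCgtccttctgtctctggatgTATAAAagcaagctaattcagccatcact
Cyp2a12: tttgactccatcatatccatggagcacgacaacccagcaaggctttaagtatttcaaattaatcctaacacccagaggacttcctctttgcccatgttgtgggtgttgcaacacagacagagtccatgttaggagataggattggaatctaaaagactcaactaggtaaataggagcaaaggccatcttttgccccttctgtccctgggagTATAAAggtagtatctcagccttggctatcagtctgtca
Cyp2a22: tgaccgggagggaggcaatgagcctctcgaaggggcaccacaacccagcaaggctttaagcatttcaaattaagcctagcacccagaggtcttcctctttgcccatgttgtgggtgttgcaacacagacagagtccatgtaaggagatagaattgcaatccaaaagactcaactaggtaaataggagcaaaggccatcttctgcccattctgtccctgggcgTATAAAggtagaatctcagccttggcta

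Upstream of Cyp2a4 and Cyp2a5, 249 bases could be paired and 98.39% of them were identical. Counted back from the base before the Cyp2a4 start, with the Cyp2a4 base first and the Cyp2a5 base last, the substitutions were C232T, T120C, G90A and G46T. None fell inside a capitalised match. Cyp2a12 and Cyp2a22 were identical at 90.38% of 239 paired bases, with 23 mismatches. Between the pairs, identity was 56.41% to 64.65% of paired bases. A TATA box, TATAAA, lay at -28 to -23 in Cyp2a4, -29 to -24 in Cyp2a5, -39 to -34 in Cyp2a12 and -28 to -23 in Cyp2a22, and 12.37% of 32851 RefSeq promoters of this length hold it on either strand. TTGCATAA, the letters bound by clock output factors such as DBP, was in Cyp2a4 at -70 to -63 and in Cyp2a5 at -71 to -64, and in 0.69% of all promoters. CAAAGTCC, an HNF4 half-site, was in the same pair at -55 to -48 and -56 to -49, and in 1.2% of promoters. The STAT5 letters TTCNNNGAA were in 7.02% of promoters and in none of these 4 windows. These are letter matches on both strands and no binding was measured.

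The transcripts fell into the same pairs. Coding sequences of Cyp2a4 and Cyp2a5 (1482 bases each, 9 exons) differed at 23 positions, an identity of 98.45%, with the longest identical run at 216 bases. Those of Cyp2a12 and Cyp2a22 (1476 bases each, 9 exons) differed at 45 positions, an identity of 96.95%, and their longest identical run was 206 bases. Across the pairs, identity was between 74.9% and 76.05%. Of all 50-base windows of the transcript, 38.01% in Cyp2a4, 40.84% in Cyp2a5, 27.51% in Cyp2a12 and 25.7% in Cyp2a22 also occurred in a transcript of another Cyp2 gene. At 150 bases these shares were 4.22%, 5.79%, 3.72% and 3.46%. Neither the labels nor the table give the read length or the treatment of reads that match 2 genes, and the division of reads within each pair is therefore uncertain, mainly for the low genes Cyp2a4 and Cyp2a22.

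The count table places Cyp2a4 (ENSMUSG00000074254) on chromosome 7 at 26006594 to 26014513, Cyp2a5 (ENSMUSG00000005547) at 26534730 to 26542973 and Cyp2a12 (ENSMUSG00000060407) at 26728506 to 26736800, all on the plus strand. Cyp2a22 (ENSMUSG00000091867) is at 26631056 to 26638809 on the minus strand. Each of these starts and ends is 300575 bases below its place in the GRCm38 annotation, GENCODE M21, although the submitters' notes name mm10. The build of the table is therefore uncertain, and its positions are used here only for order and distance. In that order, 96.5 kb separate Cyp2b9 from Cyp2a4, 520.2 kb separate Cyp2a4 from Cyp2a5, 88.1 kb separate Cyp2a5 from Cyp2a22 and 89.7 kb separate Cyp2a22 from Cyp2a12. Other rows with a Cyp2a symbol held few counts: Cyp2a21-ps, a pseudogene that spans Cyp2a22 on the other strand, had 24 in flox and 2 in HKO. Cyp2ab1 is a gene of chromosome 16 with 6 and 10.

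Libraries held 15413648 to 19275358 counts, and a count of 3, taken as the limit of a zero, stood for 0.156 to 0.195 CPM (counts scaled to a common library size). Library sizes were adjusted by TMM scaling, which evens out differences in composition. By edgeR's quasi-likelihood test, 561 of 14068 genes passed an adjusted p of 0.05 (3.99%), of which 432 were lower in HKO (3.07%) and 129 higher (0.917%). Their number was 361 without flox replicate 5, 335 without HKO replicate 1, 289 without HKO replicate 4 and 354 without HKO replicate 5. The targeted gene Acss2 measured 80.8 ± 29.5 CPM (SD, n = 5) in flox and 49.4 ± 7.46 in HKO, a log2 fold change of -0.71 ± 0.21 (SE, edgeR adjusted p = 0.0858), and the groups overlapped. It passed without flox replicate 3 (adjusted p = 0.0460), with library totals (0.0447), with no filter on low counts (0.0433) and by DESeq2 (0.0416). Without flox replicate 4, the highest library for Acss2 at 129 CPM, the log2 fold change was -0.47. Over all alternatives given below, the adjusted p of Acss2 ranged from 0.0416 to 0.186. The Y-linked transcript Ddx3y was at 71.4 to 122 CPM in all 10 libraries and Xist, the transcript of the inactive X, at 0.0648 to 0.601. All 10 libraries, flox replicate 4 among them, thus showed the transcripts of male liver. Hepatocyte markers, headed by Alb, summed to 91880 to 141800 CPM in flox and 111000 to 149200 in HKO.

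Markers of macrophages differed between the groups. All 12 on the list (Adgre1, Cd68, Csf1r, Clec4f, Mpeg1, C1qa, C1qb, Vsig4, Marco, Cd5l, Lyz2 and Timd4) were called lower in HKO, 10 of them with no overlap. They summed to 310.2 to 776.5 CPM in flox and 117 to 243 in HKO, and their median log2 fold change was -1.74 against 0.01 over all genes tested. Of all genes tested, 3.07% were called lower and 3.46% had every HKO library below every flox library. The part of the macrophage markers in the Cyp2a values was not tested. In whole liver, fewer cells of a type and less RNA per cell cannot be told apart.

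Of the Cyp2a genes, 3 of 4 passed the threshold, all lower in HKO, in a comparison where 3.99% of genes did. The same 3 had groups that did not overlap, which 5.37% of tested genes showed (3.46% with HKO lower and 1.91% with HKO higher), and nothing is read from either count because the genes were chosen on this contrast. The differences were graded: Cyp2a4 was at or near 0 in HKO livers, Cyp2a22 was at 3.52% of its flox mean, Cyp2a5 was at 42.3%, and Cyp2a12 overlapped.

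**Figure D1:**
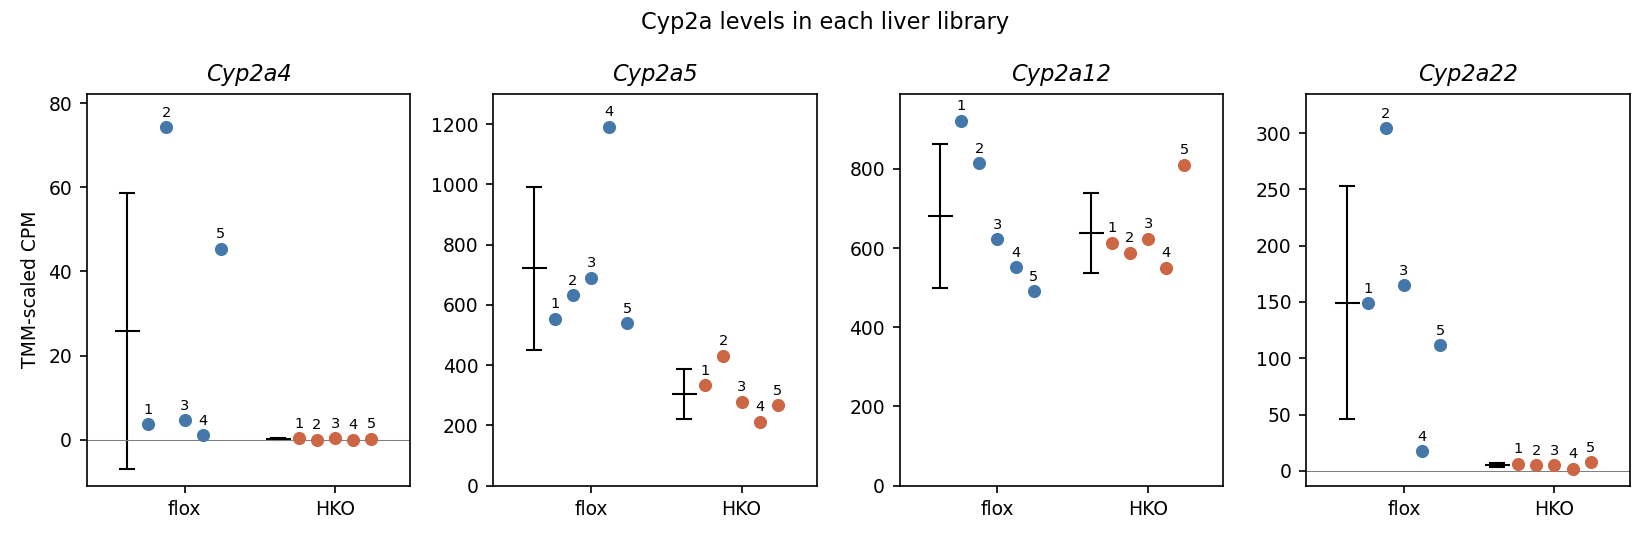
TMM-scaled CPM of Cyp2a4, Cyp2a5, Cyp2a12 and Cyp2a22 in each liver library, 1 panel per gene on its own linear axis; points are libraries with their replicate number, and bars left of them are mean and SD (n = 5). The HKO points lie below every flox point for Cyp2a4, Cyp2a5 and Cyp2a22, and among the flox points for Cyp2a12.

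Cyp2a4, the steroid hydroxylase of the first pair, was scarce and uneven even in flox livers. Its levels in flox replicates 1 to 5 were 3.73, 74.3, 4.70, 1.09 and 45.4 CPM, and in HKO replicates 1 to 5 they were 0.324, 0, 0.397, 0 and 0.221. Flox replicates 2 and 5 were far above the other three, flox replicate 4 was the lowest of its group, and the groups did not overlap. In counts, the gene held 2288 in flox and 15 in HKO, with none in HKO replicates 2 and 4. The means were 25.9 ± 32.7 CPM (SD, n = 5) and 0.188 ± 0.183, and the log2 fold change, HKO over flox, was -7.05 ± 1.26 (SE). With so few HKO counts the size of that ratio is loosely fixed: leaving out 1 library gave -7.47 to -6.15, the latter without flox replicate 2.

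Cyp2a5, the coumarin hydroxylase, was abundant in both groups. The flox libraries, in order of replicate number, measured 554, 633, 691, 1191 and 539 CPM, and the HKO libraries 334, 432, 279, 213 and 268. Every HKO library was below every flox library, and flox replicate 4, the lowest flox library for Cyp2a4, was the highest for Cyp2a5. Means were 721.5 ± 269 CPM in flox and 305 ± 82.9 in HKO (SD, n = 5), so that the HKO mean was 42.3% of the flox mean. The log2 fold change of -1.24 ± 0.24 (SE) became -0.98 without flox replicate 4, and omissions of 1 library ranged from -1.40 to -0.98. Adding Cyp2a4 and Cyp2a5 into 1 row, which takes away errors in dividing reads between them, gave -1.29 ± 0.24. The sum restores no reads that may have been left out for matching 2 genes, and does not cover reads shared with other Cyp2 genes. Of 802 windows of 50 bases that Cyp2a5 shared, 609 were shared with Cyp2a4.

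Within that pair, the share of Cyp2a4 measures the balance of steroid and coumarin hydroxylase transcripts. It was 0.669%, 10.5%, 0.675%, 0.0913% and 7.78% in flox replicates 1 to 5. Among these the interval of flox replicate 4, 0.055% to 0.143% (exact Clopper-Pearson, 95%), was the only one to overlap the HKO values. HKO replicates 1, 3 and 5 had 0.0969%, 0.142% and 0.0823%, while HKO replicate 2 had 0 of 6852 counts, which allows a share of up to 0.0438% when 3 counts are taken as the limit of a zero and 0.0538% by the exact interval. HKO replicate 4 had 0 of 3310, which allows up to 0.0906% and 0.111% by the same measures. HKO replicate 2 thus lay below the interval of flox replicate 4, and the intervals of the other HKO libraries overlapped it. Intervals and limits cover counting error only.

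**Figure D2:**
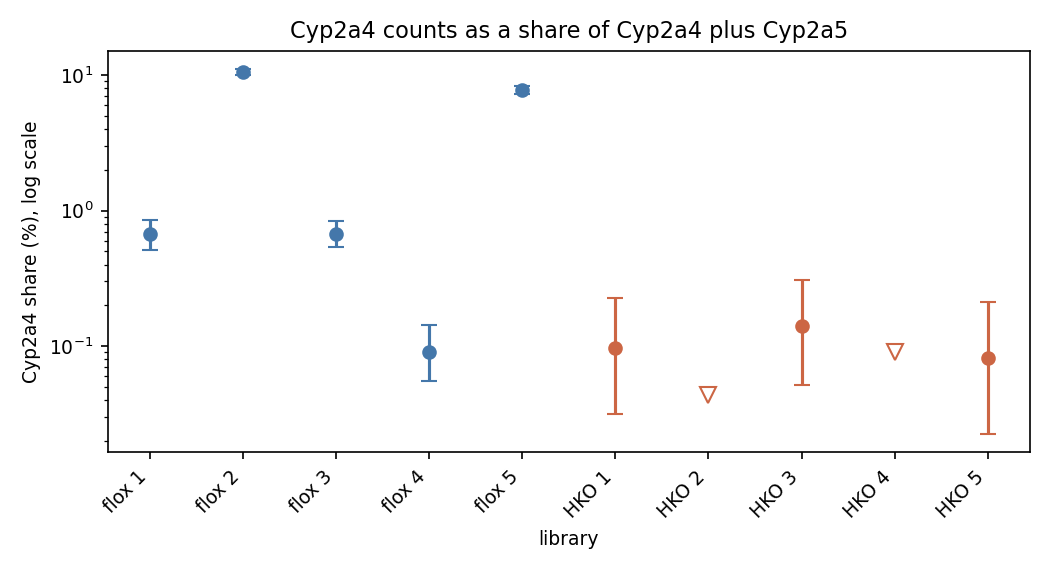
Cyp2a4 counts as a percentage of Cyp2a4 plus Cyp2a5 counts in each library, on a log axis; bars are exact 95% intervals, and open triangles mark the share that 3 counts would give where the count was 0. Flox replicates 2 and 5 sit at 10.5% and 7.78%, whereas flox replicate 4 at 0.0913% lies among the HKO values.

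In the second pair, Cyp2a12 was abundant, and its levels in the groups overlapped. Listed by replicate number, its values were 921, 815, 623, 551 and 491 CPM in flox livers and 613, 588, 623, 550.0 and 810.5 in HKO livers. Flox replicates 1 and 2 and HKO replicate 5 were the highest. The means were 680.1 ± 182 and 637 ± 101 CPM (SD, n = 5). The log2 fold change was -0.09 ± 0.19 (SE), between -0.20 without HKO replicate 5 and 0.04 without flox replicate 1, so it had no settled direction.

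Cyp2a22, its near-copy on the opposite strand, had 12975 counts in flox and 428 in HKO. Levels in flox replicates 1 to 5 were 149, 304, 165, 17.5 and 112 CPM, and in HKO replicates 1 to 5 they were 6.48, 4.92, 5.09, 1.99 and 7.83. No library overlapped, and flox replicate 4 again came closest to the HKO group. Mean levels were 149.5 ± 104 CPM and 5.26 ± 2.17 (SD, n = 5), the HKO mean being 3.52% of the flox mean. The log2 fold change was -4.82 ± 0.60 (SE), -5.11 without flox replicate 4 and -4.39 without flox replicate 2. Set against Cyp2a12 in the same library, Cyp2a22 had 16.2, 37.3, 26.5, 3.17 and 22.8 counts per 100 in flox replicates 1 to 5 and 0.362 to 1.06 in HKO.

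The makeup of the family differed accordingly. Together the 4 genes measured 1577 ± 255 CPM in flox (1187 to 1826) and 947 ± 122.5 in HKO (764.7 to 1086), groups that did not overlap (SD, n = 5). Cyp2a12 made up 43.2 ± 9.05% of the family in flox and 67.4 ± 6.77% in HKO, Cyp2a5 45.7 ± 13.6% and 32.1 ± 6.84%, and Cyp2a22 9.47 ± 5.63% and 0.540 ± 0.183%. As shares of 1 total these values depend on each other.

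Per kilobase of the gene length in the table, the levels in flox ran from Cyp2a5 at 348 ± 130.0 CPM (SD, n = 5) through Cyp2a12 at 197 ± 52.6 and Cyp2a22 at 43.4 ± 30.1 to Cyp2a4 at 14.9 ± 18.8. Cyp2a5 led Cyp2a12 in 5 of 5 flox libraries and in 1 of 5 HKO libraries, where the means were 147 ± 40.0 and 184 ± 29.2. For Cyp2a12 and Cyp2a22 the table's lengths, 3457 and 3445 bases, equal those of retained-intron transcripts in GENCODE M21, whereas their coding transcripts have 1681 and 1796 bases. With coding-transcript lengths, a choice made after the data were seen, Cyp2a12 measured 405 ± 108 CPM per kilobase in flox and Cyp2a5 358 ± 134, and Cyp2a5 led in 1 of 5 flox libraries and 0 of 5 HKO libraries. These 2 neighbours in the order are thus not separated in flox. The lower places, Cyp2a12 above Cyp2a22 above Cyp2a4, held in all 10 libraries with either length.

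Covariation within groups was taken over 10 libraries after subtracting each group's mean log2 CPM, for 6 pairs of genes. No pair passed after adjustment, by two-sided exact permutation within groups. Cyp2a12 and Cyp2a22 had a Pearson r of 0.58 (exact permutation p = 0.142, adjusted 0.384) and a Spearman rho of 0.77 (exact permutation p = 0.0219, adjusted 0.131), with r at 0.62 without flox replicate 1 and HKO replicate 5. Cyp2a5 and Cyp2a22 had an r of -0.45 (exact permutation p = 0.256, adjusted 0.384) and a rho of -0.18 (exact permutation p = 0.649, adjusted 0.765). Without flox replicate 4 and HKO replicate 2 that r was 0.56, so its sign rests on those libraries. Cyp2a5 and Cyp2a12 had an r of -0.25 (exact permutation p = 0.591, adjusted 0.709) and a rho of -0.13 (exact permutation p = 0.754, adjusted 0.765), with r at 0.13 without the same 2 libraries. Values for the pairs with Cyp2a4 are left out, since its HKO libraries hold 0 to 6 counts.

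Genes whose levels followed a member most closely by the same within-group r were chosen from 11774 genes and are given as a description over 10 libraries. For Cyp2a4, whose HKO libraries hold too few counts to add much, they were Nenf (r = 0.95), Nfe2l1 (0.94) and Man1b1 (0.93). Flox replicates 2 and 5 were the highest flox libraries for Cyp2a4 and for each of these genes. The genes for Cyp2a5 were Sat2 (0.96), Smpd2 (0.95) and Acvr2b (0.93), and those for Cyp2a12 were Tmco1 (0.95), Maob (0.94) and Mrps36 (0.91). Cyp2a22 was followed by Acsf2 (0.94) and the organic anion transporter gene Slc22a29 (0.92). Without flox replicate 4, r was 0.83 for Acsf2 and 0.89 for Slc22a29.

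Along the chromosome, lower levels were seen beyond the Cyp2a genes but not over the whole cluster. Of 9 other Cyp2 genes of the cluster, 4 were tested and 2 were called lower, both P450s of the Cyp2b subfamily that also hydroxylate steroids and drugs. Cyp2b9, the upstream neighbour of Cyp2a4 and a female-predominant P450, measured 392, 599.7, 310.5, 49.6 and 298.5 CPM in flox replicates 1 to 5. In HKO it was at 0.126 to 4.08 CPM, far below all of these. Its log2 fold change was -7.45 ± 0.80 (SE, edgeR adjusted p = 0.000913). Cyp2b10, the standard target of CAR, measured 9.67, 10.7, 1.09, 1.72 and 0.655 CPM in flox replicates 1 to 5 and 0.0630 to 0.551 in HKO. Its flox mean rests mainly on flox replicates 1 and 2. The means were 4.76 ± 4.96 and 0.383 ± 0.198 CPM (SD, n = 5), a log2 fold change of -3.60 ± 0.80 (adjusted p = 0.0233). That call ended without flox replicate 2 or HKO replicate 1, 2 or 4 (adjusted p 0.0526 to 0.0587), and without flox replicate 2 the count of called neighbours was 1.

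Beyond them, Cyp2g1, between Cyp2a4 and Cyp2a5, had a log2 fold change of -1.42 ± 0.41 (adjusted p = 0.0769), and passed without flox replicate 1 (adjusted p = 0.0394). Cyp2f2, downstream of Cyp2a12 and known as the naphthalene-activating P450, had 0.39 ± 0.22 (adjusted p = 0.394). Cyp2b13 was chosen after its values were seen. It did not pass the filter on low counts: flox replicate 4 held only 4 counts, and all of HKO held 4. The flox libraries by number had 10.6, 44.3, 8.08, 0.229 and 21.7 CPM. There too flox replicate 4 was the lowest of its group.

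Other genes flanking the cluster gave 15 tested and 2 called lower (13.3%, against 3.07% of all genes called lower). Their median log2 fold change was -0.22. Axl, a receptor tyrosine kinase gene known from macrophages, fell by 1.33 ± 0.28 on the log2 scale (adjusted p = 0.0181). Tgfb1, the growth factor gene, fell by 1.24 ± 0.30 (adjusted p = 0.0317), and its call ended without flox replicate 4 or 5 or HKO replicate 1, 2, 3 or 4 (adjusted p 0.0541 to 0.0864). In each of these omissions 1 flanking gene was called. The 12 macrophage markers were lower in the same libraries, and their part in the Axl and Tgfb1 values was not tested. Every tested flanking gene from Gm15883 to Coq8b had a log2 fold change between -0.42 and 0.43.

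**Figure D3:**
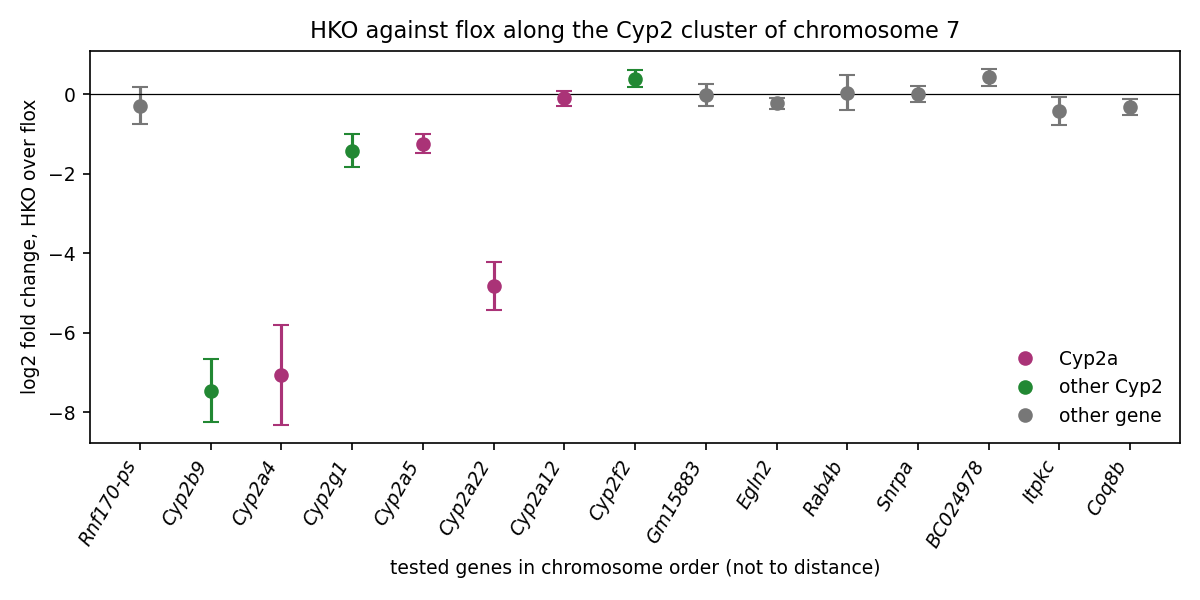
Log2 fold change, HKO over flox, with its SE for the tested genes around the Cyp2a genes in chromosome order, not to distance. Cyp2b9, Cyp2a4 and Cyp2a22 lie at -7.45, -7.05 and -4.82, while Cyp2a12 at -0.09, beside Cyp2a22, and the genes right of it lie near 0.

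Of 15 known regulators of Cyp2a5 tested, 1 was called, lower (6.67%, near the 3.99% of all genes), and the median log2 fold change was 0.02. Ahr, the aryl hydrocarbon receptor, measured 72.5 to 116 CPM in flox and 42.3 to 54.3 in HKO, groups that did not overlap. It fell by 0.88 ± 0.16 on the log2 scale (edgeR adjusted p = 0.0109). The CAR gene Nr1i3 had a log2 fold change of 0.02 ± 0.24 (adjusted p = 0.980) and Hnf4a one of 0.09 ± 0.21 (adjusted p = 0.877), and for both the sign turned with library totals in place of TMM scaling (-0.088 and -0.012). Nfe2l2, which encodes NRF2, had -0.28 ± 0.16 (adjusted p = 0.422).

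A list of clock genes held output factors such as Dbp and Tef together with core clock genes such as Clock and Per2. It gave 0 calls of 13 by edgeR, 0 at an unadjusted p under 0.05 and 0 by DESeq2. The letters TTGCATAA upstream of Cyp2a4 and Cyp2a5 concern only the output factors in it. Tef, the most abundant gene of the list, had a log2 fold change of 0.14 ± 0.24 (adjusted p = 0.837). Dbp, chosen after its values were seen, measured 25.9, 19.6, 44.5, 129.5 and 44.6 CPM in flox replicates 1 to 5. In HKO replicates 1 to 5 it was at 94.5, 103, 33.8, 42.0 and 2.65. Dbp swings with the time of day in liver, and these libraries spanned a wide range within both groups. Collection times are not in the labels.

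Growth hormone acts on liver through its receptor and STAT5, and 12 genes of that axis were tested. Of these, 1 was called higher and 1 lower (16.7%, against 3.99% of all genes), with 8 at an unadjusted p under 0.05. DESeq2 called 4. Log2 fold changes in the axis ran from -1.27 to 1.52, with a median of -0.36. Igf1, its main endocrine product, measured 351 to 565 CPM in flox and 694.6 to 928 in HKO and rose by 0.71 ± 0.16 on the log2 scale (adjusted p = 0.0233). Prlr, the prolactin receptor gene, fell by 0.67 ± 0.15 (adjusted p = 0.0256). Both calls ended without HKO replicate 1 or HKO replicate 4 (adjusted p 0.0577 to 0.0640), leaving 0 called, and that of Prlr also without HKO replicate 2 (adjusted p = 0.0541).

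Liver genes that differ between the sexes were called in both directions, by list. Of 27 female-biased genes, 16 were tested and 9 were called, all lower and all without overlap of the groups (56.2% of those tested, against 3.07% of all genes called lower). The median log2 fold change of the 16 was -1.24. Slc22a27, an organic anion transporter gene, measured 4.70 to 26.3 CPM in flox and 0.567 to 1.39 in HKO, a log2 fold change of -4.19 ± 0.41 (adjusted p = 0.000841). Hao2, a hydroxyacid oxidase gene, fell from 7.88 ± 5.33 to 0.0762 ± 0.0556 CPM, or by 6.58 ± 0.73 (adjusted p = 0.000947). It held 6 counts in all of HKO, each library below the limit of a zero, so the size of that fall is loosely fixed. Cyp2b9, above, was the third. Like Cyp2a4, Hao2 and Cyp2b9 passed the filter on low counts only through flox, the group where they are high.

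Of 21 male-biased genes, 19 were tested and 10 were called, all higher (52.6%, against 0.917% of all genes called higher), and the median log2 fold change of the 19 was 2.05. In 14 of the 19 the HKO libraries were all above the flox libraries, against 1.91% of all genes. Cyp7b1, the oxysterol hydroxylase, rose from 54.0 ± 16.9 to 249.7 ± 63.7 CPM (SD, n = 5), a log2 fold change of 2.21 ± 0.22 (adjusted p = 0.000841). Mup21, a major urinary protein gene, rose by 2.05 ± 0.36 (adjusted p = 0.00978) and the carboxylesterase gene Ces4a by 2.63 ± 0.47 (adjusted p = 0.0106). Ces4a, with 40 counts in all of flox, passed the filter on low counts only through HKO. The count of called male-biased genes was 6 without flox replicate 5, HKO replicate 1 or HKO replicate 4, and 16 without flox replicate 4. These lists were chosen with earlier results of these libraries known, so their counts are not independent of what was already seen.

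Flox replicate 4 stood apart here. Among flox libraries it was the lowest for 7 of the 16 tested female-biased genes (43.8%) and the highest for 15 of the 19 tested male-biased genes (78.9%), against 15.4% and 15.5% of all genes tested. Among the called genes it was the lowest for 7 of 9 and the highest for 7 of 10. It was also the lowest flox library for Cyp2a4 and Cyp2a22 and the highest for Cyp2a5. For Hsd3b5, a male-biased steroid dehydrogenase gene chosen after its values were seen, flox replicate 4 had 76.3 CPM, the other flox libraries 0.367 to 2.51 and the HKO libraries 116 to 223. Without this library the log2 fold changes were -7.36 for Cyp2a4, -0.98 for Cyp2a5 and -5.11 for Cyp2a22, and the count of called female-biased genes stayed within 7 to 11 in every omission.

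**Figure D4:**
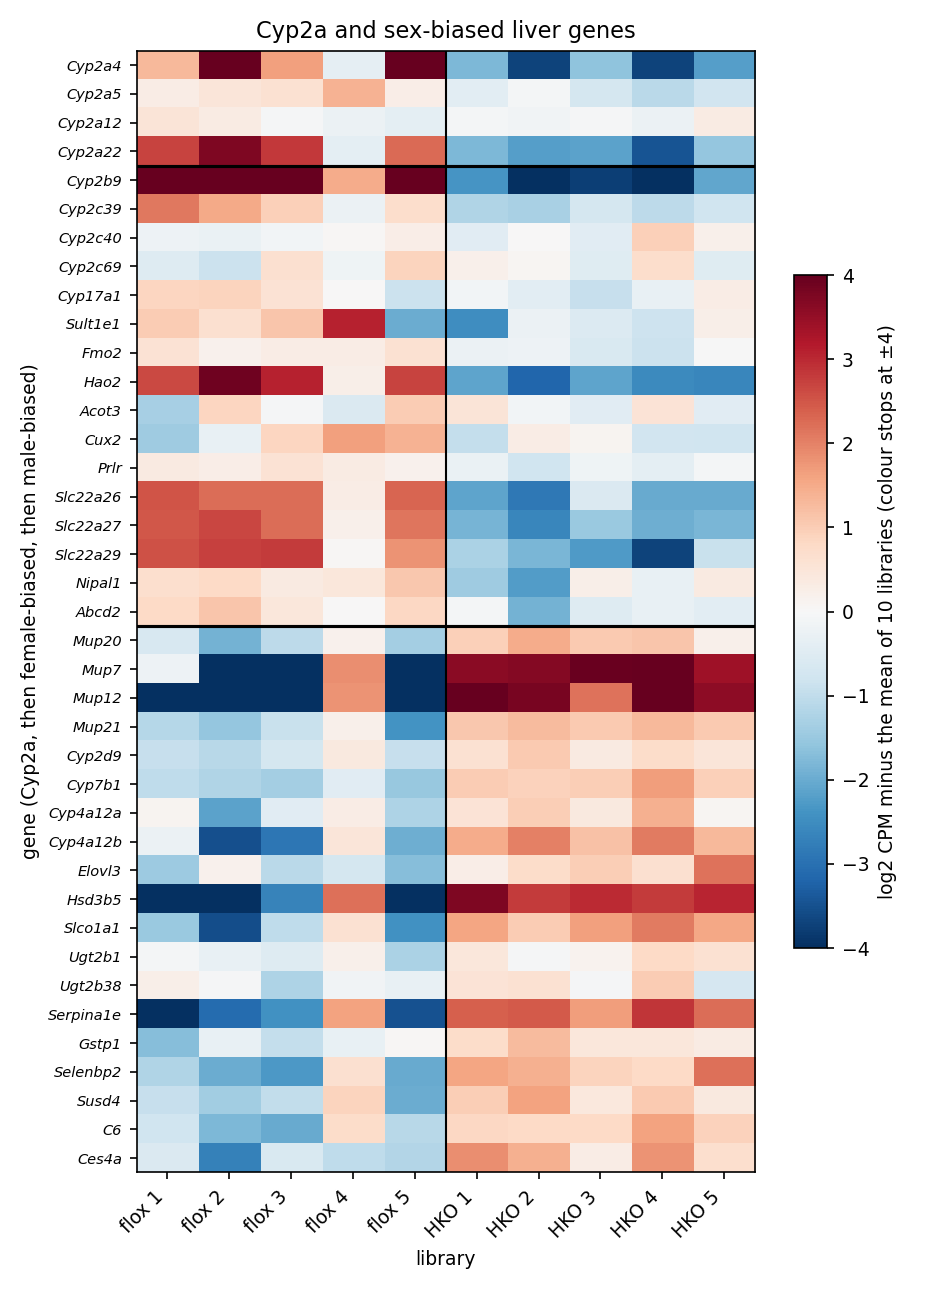
Log2 CPM minus the mean of 10 libraries for the Cyp2a genes (top), tested female-biased genes (middle) and tested male-biased genes (bottom), with libraries in columns and colours stopping at -4 and 4. Cyp2a4 and Cyp2a22, like Cyp2b9 and Hao2, are high in flox and low in HKO with flox replicate 4 between, and most male-biased genes run the other way.

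Further routes of Cyp2a5 induction were followed through their other targets. Of 17 CAR targets, 3 were called, all lower (17.6%, against 3.99% of all genes). The median log2 fold change of the 17 was -0.13 and the highest was 0.70. In 1 target every HKO library was above every flox library. The 3 called were Cyp2b10, above, and the glutathione transferase genes Gstm3, which fell by 3.41 ± 0.48 (adjusted p = 0.00362), and Gstm2, which fell by 1.86 ± 0.32 (adjusted p = 0.00978). Of 18 NRF2 targets, 15 were tested and 3 were called lower, with a median of -0.48, and 5 were called without HKO replicate 3. Pgd, of the pentose phosphate pathway, fell by 0.96 ± 0.19 (adjusted p = 0.0156). The quinone reductase gene Nqo1 fell by 1.05 ± 0.23 (adjusted p = 0.0230), a call that ended without HKO replicate 2, 4 or 5 (adjusted p 0.0504 to 0.0599). Gstm1 fell by 1.19 ± 0.26 (adjusted p = 0.0233), and its call ended without flox replicate 2 or 5 or HKO replicate 1, 2 or 4 (adjusted p 0.0536 to 0.0624).

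Genes that supply P450 enzymes with electrons and haem gave 0 calls of 16 by edgeR, 4 at an unadjusted p under 0.05 and 2 by DESeq2, with a median log2 fold change of -0.05. One was called by edgeR without flox replicate 3 or HKO replicate 4, and 2 without HKO replicate 3. Pgrmc1, which encodes a haem-binding partner of P450s and was the most abundant, had -0.15 ± 0.17 (adjusted p = 0.712).

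Cyp2a5 is known from hepatocytes around the central vein, so markers of liver zones are given beside it. Of 17 pericentral genes, 2 were called lower (11.8%, against 3.07% of all genes called lower), with a median log2 fold change of -0.22. Lect2, a secreted protein gene, fell by 0.73 ± 0.17 (adjusted p = 0.0259) and Rhbg, an ammonia transporter gene, by 1.39 ± 0.32 (adjusted p = 0.0289). Neither call was firm. Lect2 was lost without flox replicate 2 or HKO replicate 1, 2 or 4 (adjusted p 0.0622 to 0.0694), and Rhbg without any 1 library but flox replicates 3, 4 and 5 (adjusted p 0.0531 to 0.0739), so that 0 were called without flox replicate 2 or HKO replicate 1, 2 or 4, and 1 without flox replicate 1 or HKO replicate 3 or 5. Of 15 periportal genes, 1 was called (6.67%, near the 3.99% of all genes), and the median was 0.18. It was Aldh1b1, which fell by 1.87 ± 0.31 (adjusted p = 0.00834). Without flox replicate 5, 2 were called. Flox replicate 4, the highest flox library for Cyp2a5, was also the highest for 9 of the 17 pericentral genes (52.9%, against 15.5% of all genes), and its part in the zonal values was not tested.

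Enzymes that share substrates with the Cyp2a family, acting on steroids, bilirubin or nicotine, gave 20 tested, 3 called higher and 2 lower. That is 25.0% called, against 3.99% of all genes, and the median log2 fold change was 0.11. Besides Cyp7b1, the male-biased testosterone hydroxylase gene Cyp2d9 rose by 1.21 ± 0.27 (adjusted p = 0.0242), and Fmo1, a flavin monooxygenase gene, fell by 0.57 ± 0.14 (adjusted p = 0.0337). Cyp2d9 was not called without flox replicate 1, 2 or 5 or HKO replicate 1, 2 or 4 (adjusted p 0.0508 to 0.0615), and Fmo1 was called in no omission but that of flox replicate 4 (adjusted p 0.0503 to 0.0900 in the others). The count of called partners was 1 without HKO replicate 1, 2 or 4, 2 without flox replicate 2 or HKO replicate 5, and 3 without flox replicate 1, 3 or 5 or HKO replicate 3.

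Markers of other cell types are given for reference, in a comparison where 3.99% of all genes were called. None of the 8 hepatocyte markers was called by edgeR, with 2 at an unadjusted p under 0.05 and 1 by DESeq2. Alb was at 81540 ± 19390 CPM in flox and 90870 ± 10780 in HKO (SD, n = 5). Among sinusoidal endothelial markers 1 of 8 was called lower, among lymphocyte markers 1 of 5. Stellate cell, bile duct, neutrophil and red blood cell markers had 0 called of 8, 5, 3 and 5 by edgeR, 4, 0, 2 and 0 at an unadjusted p under 0.05, and 0, 0, 1 and 0 by DESeq2.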

How the data were processed

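Total RNA of liver was sequenced, and the authors deposited a table of read counts per gene for 5 flox and 5 HKO libraries, with gene lengths and positions. The submitters' processing notes name mm10 and DESeq2, without their role. Not given in the sources used here: aligner, counter, strand setting, read length and annotation. Libraries were grouped by the labels. The Cyp2a genes, the lists and the tests were chosen with earlier results of these data known.

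Genes passing edgeR's filterByExpr were fitted over all 10 libraries with edgeR 4.0.16 in R 4.3.3 (TMM scaling, quasi-likelihood F-test, Benjamini-Hochberg adjustment over 14068 genes, threshold 0.05). Of 56748 rows, 28040 held no count. The SE of a log2 fold change is its size divided by the square root of F. Log2 CPM used a prior count of 2. Intervals of shares are exact. Depth was 15413648 to 19275358 counts per library.

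Named are the Cyp2a genes and other rows with a Cyp2a symbol, Acss2, all tested Cyp2 neighbours, Nr1i3, Hnf4a and Nfe2l2. Also named are, in each list, up to 3 called genes of smallest p or else the 1 most abundant, and for each Cyp2a gene the 3 genes of highest within-group r with a mean of at least 1 CPM. Exceptions chosen after their values were seen are marked. One gene that this rule names is not reported here.

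Alternatives were RLE scaling, library totals, no filter, at least 1 CPM in 5 libraries, robust dispersion, a replicate block, DESeq2 1.42.0 and leaving out each library. The length of coding transcripts was added after seeing the data. Sequences were compared with Biopython 1.88, using GENCODE M21 and RefSeq GRCm38.p6, where all 4 genes matched. A simulation on 13851 genes used the means, dispersions and library sizes of these data. Recovery was 53.2% at a 2-fold change and 93.7% at a 4-fold change, with 10 false calls of 149. Counts were drawn independently for each gene, so a library that stands apart, such as flox replicate 4, was not modelled. The rates may therefore not hold for these libraries.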

Additional observations from a re-analysis of the deposited data

Results flagged for a closer look

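Of 16 groups of 5 libraries tested, 3 held a library far from the others, where chance gives about 1 in 20. Cyp2a5 in flox had its highest value, 1191 CPM, in flox replicate 4, while the other flox libraries lay between 539 and 691. The summed level of Cyp2a4 and Cyp2a5 showed the same library at 1192 CPM, and since Cyp2a5 makes up nearly all of that sum the flags are not separate. Cyp2a12 in HKO had its highest value, 810.5 CPM, in HKO replicate 5, and the other HKO libraries lay between 550.0 and 623. Causes were not tested.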

How the results depend on the processing

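The 3 called Cyp2a genes passed the threshold and kept their sign in all 17 alternatives. These refits use the libraries on which the genes were chosen, so nothing is read from their calls. Library totals moved the median log2 fold change of all genes by -0.11. With DESeq2, 1112 genes were called, 315 higher and 797 lower, with 4 Cyp2 neighbours, 4 genes of the growth hormone axis, 5 CAR targets, 2 electron and haem genes and 9 partner enzymes. With no filter on low counts, 214 genes were called higher, with 4 neighbours, 4 growth hormone axis genes and 18 male-biased genes. Requiring 1 CPM in 5 libraries left 1 neighbour. Library totals gave 2 electron and haem genes. Nr1i3 reversed with library totals (-0.088) and without flox replicate 1 or 5 or HKO replicate 1 or 2, ranging from -0.15 to 0.18 over the omissions. Hnf4a reversed with library totals (-0.012) and without flox replicate 4, ranging from -0.024 to 0.22.

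Leaving out 1 library gave 289 to 673 called genes, 69 to 160 higher and 220 to 522 lower. It gave 1 to 3 neighbours, 1 to 2 flanking genes, 0 to 3 growth hormone axis genes, 6 to 16 male-biased genes, 2 to 4 CAR targets, 2 to 5 NRF2 targets, 0 to 2 electron and haem genes, 0 to 2 pericentral, 1 to 2 periportal and 1 to 5 partner enzymes. Of 509 values for 30 named genes over 17 alternatives, 441 kept direction and side of the threshold, 54 lost the call, 7 gained it and 7 reversed. With coding-transcript length, Cyp2a5 led Cyp2a12 per kilobase in 1 rather than 5 flox libraries and in 0 rather than 1 HKO library.

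Replicate numbers are shared between groups only as numbers: same-numbered libraries deviated with an r of -0.12 to 0.24 and none matched its own number best. A replicate block gave 448 called genes, with 1 neighbour, 4 growth hormone axis genes, 16 male-biased genes, 0 pericentral genes and 3 partner enzymes. Causes of these shifts were not tested. Depth limits Cyp2a4 in HKO, at 15 counts in all.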
